A study of Mus musculus with 15 samples.

Results

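The 10 genes described here encode proteins of the PIWI-interacting RNA (piRNA) pathway, namely Piwil1, Piwil2, Piwil4, Ddx4, Tdrd1, Tdrd6, Tdrd9, Mael, Mov10l1 and Henmt1. They were picked by their symbols among the 32285 genes counted in single cells of mouse testis, where all 10 were found, and no measured value entered the choice. Single-cell RNA sequencing (10x Genomics 3′ chemistry) was carried out on males of the inbred strain DBA/2J, with 1 testis of 1 mouse in each of 15 libraries and 3 libraries in each of 5 groups. JQ1, a small molecule that occupies the bromodomains of BRDT, the testis-specific member of the BET family of chromatin readers, and of the other BET proteins, was injected into the peritoneum daily at 50 mg/kg for 3 weeks. The T mice were taken at the end of the injections, at 10 weeks of age, and the R mice 6 weeks after the last dose, at 16 weeks of age. Their vehicle controls were VC-T, at 10 weeks, and VC-R, at 16 weeks, and the UC mice, at 15 weeks, received no injection. No transgene or engineered allele is named for any mouse, and the drug was given to the whole animal. The comparisons ask how the pathway genes differ in each germ cell stage at the end of exposure (T against UC) and after withdrawal (R against UC). T and UC also differed in age, so JQ1 and age cannot be told apart in that comparison, and the VC-T mice are those of matching age.

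piRNAs are small RNAs of germ cells that guide PIWI proteins to transposon and other transcripts, which are then sliced or silenced. Long precursor transcripts are unwound, and pieces of them are loaded onto a PIWI protein, then trimmed and methylated at their 3′ ends. Perinuclear granules built from Tudor-domain proteins take part in this. In the mouse, one set of proteins works in the fetal and newborn germ line, where new DNA methylation is laid down on transposons, and another set handles the abundant piRNAs that appear when spermatocytes enter the pachytene stage of meiosis, many of whose precursors and processing genes are driven by the transcription factor MYBL1 (A-MYB).

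Of 101610 barcodes, 72362 were kept as cells. The total count of unique molecular identifiers (UMIs, one per captured RNA molecule) ranged from 9673587 to 98724982 per library, and the median per kept cell from 2454.5 to 4213. No pair of libraries shared more than 0.554% of barcodes. Cells were clustered without the 10 genes, the wider pathway list and 5 spermatid genes. The 48 clusters were grouped by markers into spermatogonia-like, early spermatocyte-like, late spermatocyte-like, spermatid-like and spermatozoa-like classes. The early class (leptotene and zygotene markers) was a single cluster numbered 22. The late class held clusters 6, 7, 8, 11, 19, 20, 24, 28 and 33. It was named by 8 general spermatocyte markers, among them Sycp1, Sycp3 and Hormad1, and not by late markers alone. Cluster 6 was named with the late class because its score on these 8 markers (1.04) was above its early score of 0.668. Its score on a separate list of late markers was -0.558, although those were at a higher level (10.4 against 3.90 for the early ones). The UC libraries together held 298, 214, 1469, 1894 and 5754 cells of these classes, in that order. The T libraries held 830, 46, 6404, 4233 and 7, so the early class rested on 22, 11 and 13 cells in T 1, T 2 and T 3, and spermatozoa-like cells could not be compared at the end of exposure. One control stood apart: VC-T 1 had 0 spermatozoa-like cells, but 2547 late spermatocyte-like cells against 334 and 547 in the other VC-T libraries. The study left it out of its tests, and it enters a test here only where all 3 VC-T libraries are named.

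Levels are given in CPM, the UMIs of a gene scaled to the total UMIs of all cells of its class in a library, so a change in some cells of a class and a change in all of them cannot be told apart. Each class was tested with edgeR's quasi-likelihood test on the summed counts of the 3 libraries per group, with p-values adjusted by the Benjamini-Hochberg method over all genes tested. A gene is said to pass at an adjusted p under 0.05. Fold changes are on the log2 scale with their standard errors (SE), after scaling by the trimmed mean of M-values (TMM), whereas the CPM values are not so scaled.

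The 3′ reads are counted over the following gene bodies, given on GRCm38 with the GENCODE annotation. Piwil1 lies at chr5:128702524-128755474 (+), Piwil2 at chr14:70372477-70429383 (−) and Piwil4 at chr9:14696230-14740733 (−). The helicase genes lie at chr13:112598333-112652475 (−) for Ddx4, chr15:88982909-89055152 (+) for Mov10l1 and chr12:111971559-112068854 (+) for Tdrd9. Tdrd1 lies at chr19:56826209-56870012 (+), Tdrd6 at chr17:43615335-43630299 (−), Mael at chr1:166201201-166238747 (−) and Henmt1 at chr3:108939873-108960774 (+). Genes on the opposite strand that were also counted overlap Piwil4 (Gm10706), Tdrd9 (Rd3l) and Henmt1 (Gm9857).

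Promoter windows, from 250 bases before to 50 bases after an annotated start site (RefSeq, GRCm38.p6), were at hand for 8 of the 10 genes and not for Piwil2 and Tdrd6. They were searched on both strands for the words TAACGG and TAACTG as well as CAACGG and CAACTG, which MYB proteins bind. The 2 genes whose windows held such a word are shown, since their levels turned out to have different peaks along the germ line. Capitals mark the words, and a word on the opposite strand appears as its complement read in reverse.
Piwil1, chr5:128735996-128736295 (+), with CAACTG 73 and TAACGG 139 bases before the start, both on the opposite strand: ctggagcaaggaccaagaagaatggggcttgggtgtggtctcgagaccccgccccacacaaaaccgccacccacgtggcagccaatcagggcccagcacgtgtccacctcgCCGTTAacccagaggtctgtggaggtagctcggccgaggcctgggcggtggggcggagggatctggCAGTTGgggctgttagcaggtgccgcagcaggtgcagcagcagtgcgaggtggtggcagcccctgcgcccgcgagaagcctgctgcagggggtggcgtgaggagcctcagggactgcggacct
Mov10l1, chr15:88982744-88983043 (+), with TAACGG 218 bases before the start on the gene's own strand: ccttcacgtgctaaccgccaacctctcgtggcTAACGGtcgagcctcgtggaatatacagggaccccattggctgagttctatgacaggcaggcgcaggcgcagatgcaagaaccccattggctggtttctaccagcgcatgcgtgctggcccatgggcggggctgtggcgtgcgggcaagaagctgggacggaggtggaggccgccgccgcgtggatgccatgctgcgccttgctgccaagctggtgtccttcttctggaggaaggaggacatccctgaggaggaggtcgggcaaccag
At least 1 of the 4 words was present in 28.3% of all 32851 windows, in 2 of the 11 windows of these genes and in 10 of the 25 windows (40%) of other piRNA genes. A word in a window is a description of the sequence and not a bound site.

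In untreated testes, Piwil1 (MIWI, the PIWI protein of pachytene piRNAs) was highest in late spermatocyte-like cells, at 385 ± 76.8 CPM (SD, n = 3), above 152 ± 131 CPM in early spermatocyte-like cells and 54.8 ± 47.0 CPM in spermatogonia-like cells. Its levels in the early and spermatogonia-like classes overlapped, and it was down to 14.6 ± 3.19 CPM in spermatid-like and 8.98 ± 1.49 CPM in spermatozoa-like cells. Piwil2 (MILI, which acts from fetal germ cells through meiosis) peaked one stage earlier. It was at 295 ± 24.4 CPM in early spermatocyte-like cells, with no overlap with the 106 ± 49.8 CPM of spermatogonia-like or the 81.0 ± 7.60 CPM of late spermatocyte-like cells, which did overlap each other. Spermatid-like cells had 4.95 ± 1.22 CPM of Piwil2 and spermatozoa-like cells 2.54 ± 0.237 CPM.

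Piwil4 (MIWI2, the nuclear PIWI protein of the fetal and newborn germ line) was close to absent. Over all 15 libraries, 33 of 5834242 UMIs of spermatogonia-like cells were Piwil4, or 5.66 CPM with an exact 95% Poisson interval of 3.89 to 7.94 that covers counting error only. The UC libraries had 0 of 767568, which allows up to 3.91 CPM, and there were 17 Piwil4 UMIs in that class in VC-T (9.78 CPM), 4 in VC-R (7.31 CPM), 7 in T (4.56 CPM) and 5 in R (4.01 CPM). No UMI of Piwil4 was found among 4382148 in early spermatocyte-like cells, a limit of 0.685 CPM, and only 6, 8 and 3 in the late spermatocyte-like, spermatid-like and spermatozoa-like classes of all libraries. Sertoli-like cells had 0 of 9585748. Piwil4 was below the count filter of every fit, and its change in T and R was not detectable at this depth.

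Among the helicases, Ddx4 (VASA, the germ cell DEAD-box helicase of the granules) was highest in early spermatocyte-like cells at 647 ± 175 CPM. It was at 429 ± 43.1 CPM in late spermatocyte-like, 370 ± 149 CPM in spermatogonia-like and 276 ± 14.5 CPM in spermatid-like cells, levels of which each neighbouring pair overlapped, and at 32.0 ± 4.07 CPM in spermatozoa-like cells. Mov10l1, the helicase that starts the processing of precursors, had the steepest profile, with 824 ± 66.1 CPM in early spermatocyte-like cells, 296 ± 40.2 in spermatogonia-like, 91.3 ± 13.8 in late spermatocyte-like, 5.80 ± 1.58 in spermatid-like and 3.15 ± 0.854 CPM in spermatozoa-like cells, and no 2 neighbours in that order overlapped. Tdrd9, a helicase with a Tudor domain needed to silence transposons, was at 181 ± 36.6 CPM in early spermatocyte-like cells. Its 88.8 ± 31.1 CPM in spermatogonia-like and 88.5 ± 12.8 CPM in late spermatocyte-like cells overlapped, and 30.8 ± 5.22 CPM was left in spermatid-like cells and 4.91 ± 0.200 CPM in spermatozoa-like cells.

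The other members peaked in late spermatocyte-like cells, like Piwil1. Tdrd1, a Tudor scaffold that binds PIWI proteins, was at 173 ± 27.5 CPM there, 83.5 ± 31.1 CPM in the early class and 15.3 ± 1.30 CPM in spermatid-like cells. Tdrd6, a Tudor protein of the chromatoid body of spermatids, was at 273 ± 33.8 CPM in late spermatocyte-like cells and 114 ± 3.84 CPM in spermatid-like cells, above the 25.8 ± 16.8 CPM of spermatogonia-like and 24.0 ± 6.82 CPM of early spermatocyte-like cells. Mael, which is needed for transposon silencing and for pachytene piRNAs, was at 535 ± 24.7 CPM in late spermatocyte-like, 373 ± 7.21 in spermatid-like, 331 ± 47.5 in early spermatocyte-like, 198 ± 23.5 in spermatogonia-like and 110 ± 3.34 CPM in spermatozoa-like cells. Henmt1, the methyltransferase of piRNA 3′ ends, was at 46.9 ± 1.44 CPM in late spermatocyte-like cells and 11.0 ± 1.62 CPM in spermatid-like cells, with 25.4 ± 13.5 CPM in spermatogonia-like cells.

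**Figure D1:**
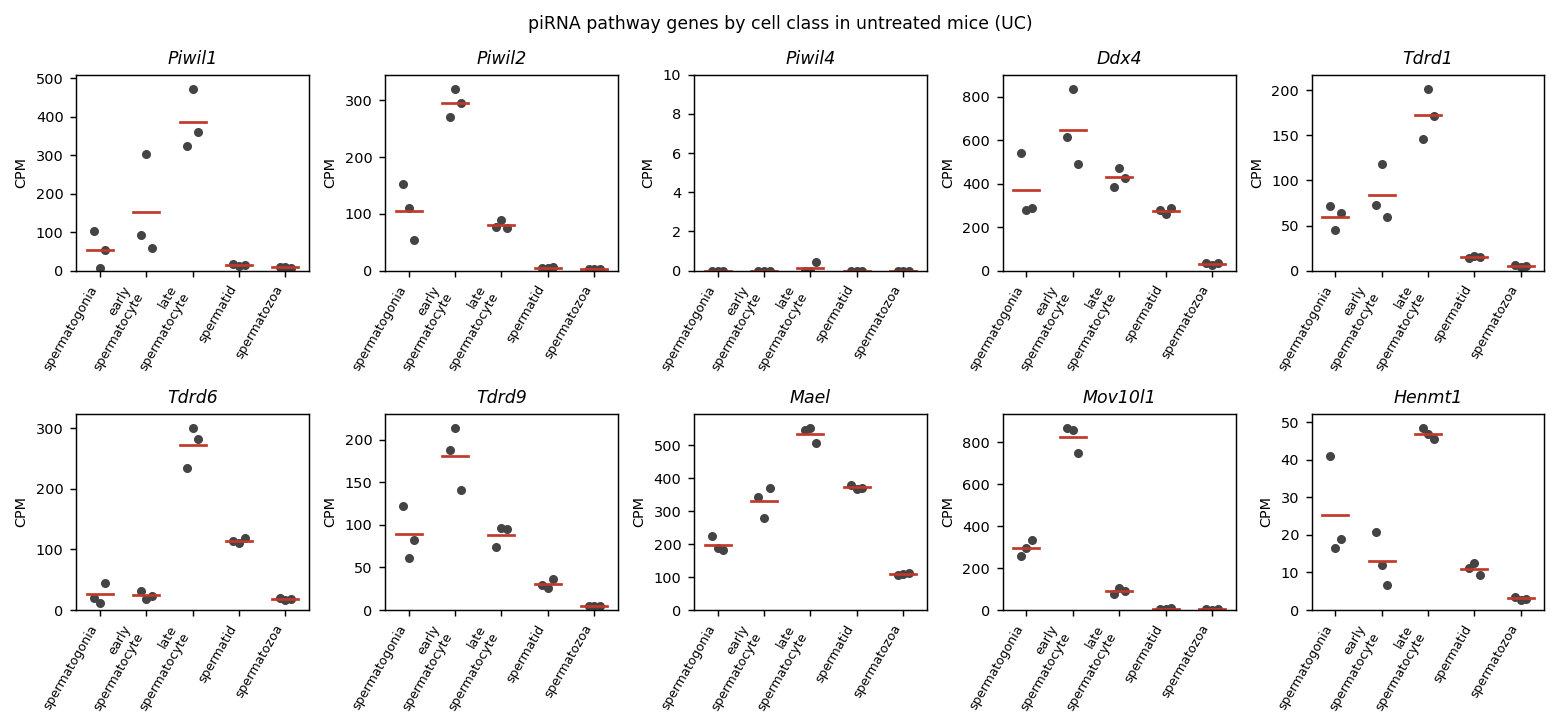
Level of each of the 10 genes in the germ cell classes of untreated testes, in CPM on a linear axis that starts at 0 in every panel. Points are the 3 UC libraries and a short red line marks their mean in each class. Piwil2, Ddx4, Tdrd9 and Mov10l1 are highest in early spermatocyte-like cells. Piwil1, Tdrd1, Tdrd6, Mael and Henmt1 are highest in late spermatocyte-like cells, and Piwil4 is at or near 0.

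RNA free in the suspension reaches every droplet, so the level in Sertoli-like cells, named by markers of a somatic cell of the tubule, is given for comparison. It is not a clean background. Several of its clusters also had positive spermatid or spermatozoa scores, such as 0.79 in cluster 1001, 1.07 in cluster 1005 and 0.87 in cluster 1010. In clusters 1006 and 1008 the best germ cell score was negative (−0.222 and −1.18). Cluster 1008 held 67 of the 188 Sertoli-like cells of UC and 60 of the 109 of T. In UC it was 20.3 CPM for Henmt1 (from 5.88 to 40.4 over the libraries), 16.7 ± 11.4 CPM for each of Tdrd1 and Tdrd9, 178 ± 84.6 CPM for Mael, 105 ± 49.1 CPM for Ddx4, 45.0 ± 31.5 CPM for Tdrd6, 25.6 ± 10.4 CPM for Piwil2, 17.1 ± 15.3 CPM for Mov10l1 and 12.8 ± 5.20 CPM for Piwil1. The spermatid-like levels of Piwil2, Mov10l1 and Henmt1 in UC were below these values and those of Piwil1 and Tdrd1 were near their own, whereas those of Tdrd9, Ddx4, Tdrd6 and Mael were above.

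Likeness of pattern was measured by Pearson's r of log2(CPM + 1) over 106 sums per library and class, among 7920 genes with a mean of at least 20 CPM. The sums share libraries, depth and stages, so the values are descriptions. Piwil1 was most like Tdrd5 (r = 0.883), a Tudor protein of pachytene piRNA processing, then Gm14023 (0.858) and Gm14244 (0.856). Piwil2 was most like Stk31 (0.906), a Tudor-domain kinase, then Mov10l1 (0.897) and Tdrkh (0.888), a Tudor protein that takes part in trimming. For Piwil4 the counts were too sparse for such values to be read.

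At the end of exposure, Mov10l1 was lower than in UC in early spermatocyte-like cells and Mael was higher in spermatogonia-like cells. Piwil1, Piwil2, Ddx4, Henmt1, Tdrd9 and Tdrd6 were higher than in UC in spermatid-like cells, and no member passed in late spermatocyte-like cells. With VC-T 2 and VC-T 3 as the controls, the calls of Mov10l1 and Mael were lost, as were those of Piwil2, Henmt1 and Tdrd9. Those of Piwil1, Ddx4 and Tdrd6 stayed, and some members passed in late spermatocyte-like cells. No member passed between VC-T 2 and VC-T 3 and UC, or between VC-R and UC, in any of the 5 classes. With so few libraries, a member that did not pass may still differ. VC-T 1, whose spermatid-like levels were like those of T (33.4 CPM of Piwil1 and 397 CPM of Ddx4), was not in these tests. At an unadjusted p under 0.05, 2 members differed in VC-R early spermatocyte-like cells, 1 in VC-T spermatid-like cells and 2 in VC-T spermatozoa-like cells, and the share of all genes that passed was 2.83% in VC-T spermatozoa-like cells and at most 0.197% elsewhere.

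In spermatogonia-like cells, 1 of the 9 members tested passed between T and UC, where 4.39% of all genes did. Mael was at 225, 189 and 181 CPM in UC and 296, 309 and 303 CPM in T. Every T library was above every UC library, a log2 change of 0.66 ± 0.17 or 1.58-fold (adjusted p = 0.0298). Piwil1 was at 102, 8.20 and 54.0 CPM in UC and a narrow 96.2, 92.6 and 96.0 CPM in T, within the UC range (log2 change 1.04 ± 0.39, adjusted p = 0.153). Tdrd6 (1.01 ± 0.40, adjusted p = 0.173), Tdrd1 (0.77 ± 0.28, 0.138) and Henmt1 (0.64 ± 0.44, 0.515) did not pass either. With VC-T 2 and VC-T 3 as the controls, Piwil1 (1.88, adjusted p = 0.0050) and Tdrd6 (1.497, adjusted p = 0.017) passed and Mael did not (0.46, adjusted p = 0.093). The Mael call was also lost without T 2, without T 3 and without any 1 of the UC libraries, at adjusted p between 0.052 and 0.20. The summed level of the 6 spermatid markers in this class was 212 to 505 CPM in T and 107 to 164 CPM in UC. That of the 8 spermatocyte markers was 1468 to 1679 against 1209 to 1410 CPM. Of those tested, 2 of 5 spermatid markers (median log2 change 1.34) and 1 of 7 spermatocyte markers (0.72) passed as higher in T. By contrast, 5 of 5 spermatozoa markers were lower in T (−1.92). The part of these markers in the change was not tested.

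In early spermatocyte-like cells, 6 members had enough counts to test and 1 passed, where 12.6% of all genes did. Mov10l1 was at 866, 859 and 748 CPM in UC and 287, 276 and 543 CPM in T, from 83, 145 and 228 UMIs and from 9, 5 and 17 UMIs. All 3 T libraries lay below the UC libraries, and the level was 0.472 times that of UC (log2 change −1.08 ± 0.28, adjusted p = 0.0106), which is also past the study's threshold of 1 on the log2 scale, as 10.4% of all genes were. Piwil2, at 271, 320 and 295 CPM in UC, was at 95.8 and 55.3 CPM in T 1 and T 2 and at 351 CPM, above all UC libraries, in T 3. The change of Piwil2 did not pass (−0.68 ± 0.42, adjusted p = 0.313). Ddx4 (−0.39 ± 0.30, adjusted p = 0.423), Mael (−0.23 ± 0.35, 0.724), Tdrd9 (−0.22 ± 0.49, 0.820) and Piwil1 (0.63 ± 0.58, 0.527) did not pass. Henmt1 had 0 UMIs in the 3 T libraries, and 6 among 569399 in UC.

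The Mov10l1 call rested on few cells: without T 1 (−0.96, adjusted p = 0.12) or without T 2 (−0.97, adjusted p = 0.072) it was lost, without T 3 Mov10l1 was at −1.58 and Piwil2 passed as well (−1.93, adjusted p = 0.028), and with VC-T 2 and VC-T 3 as the controls Mov10l1 was at −0.94 (adjusted p = 0.081). The composition of the class also moved with the result. The 7 spermatogonia markers summed to 1438 to 2431 CPM in T and 492 to 970 CPM in UC, the 8 spermatocyte markers to 3757 to 5526 and 7465 to 8729.7 CPM, and the median UMIs per cell were 1271 to 1536 and 1894 to 2086. The 6 early spermatocyte markers overlapped (1693 to 1989 and 1798 to 1914 CPM). Mov10l1 is itself lower in UC spermatogonia-like than in UC early spermatocyte-like cells, and the part of cell composition in the change was not tested.

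In late spermatocyte-like cells, which are the main site of 5 members, 0 of 9 passed between T and UC with edgeR, where 4.39% of all genes did, while 3 had an unadjusted p under 0.05 and DESeq2 passed 1 (Piwil2, adjusted p = 0.030). The changes were small. Piwil2 was at 77.7, 89.7 and 75.6 CPM in UC and 114, 106 and 125 CPM in T, with no overlap (0.37 ± 0.09, 1.29-fold, adjusted p = 0.0612). Henmt1 was at 48.3, 46.8 and 45.4 CPM in UC and 60.8, 69.4 and 69.2 CPM in T, again with no overlap (0.36 ± 0.10, 1.29-fold, adjusted p = 0.0754). Mov10l1, at 78.1, 106 and 90.0 CPM in UC and 132, 114 and 138 CPM in T, did not overlap either (0.36 ± 0.11, 1.28-fold, adjusted p = 0.102). The other members had changes between −0.08 (Tdrd6) and 0.13 (Piwil1), none of which passed. Piwil1, Tdrd1, Tdrd6 and Tdrd9 overlapped between the groups, and Ddx4 (386 to 473 CPM in UC, 485 to 504 CPM in T) and Mael (507 to 552 and 592 to 625 CPM) did not. The CPM values are unscaled, and with plain library totals the median log2 change of all genes in this comparison was 0.13, against −0.01 with TMM. The overlaps are thus to be read against that shift, and the share of all genes without overlap was not counted.

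With VC-T 2 and VC-T 3 as the controls, 3 of 9 members passed in late spermatocyte-like cells, where 13.3% of all genes did: Piwil2 (0.46), Mov10l1 (0.59) and Tdrd1 (0.32), all higher in T. The largest clusters of the class were 6, 11, 7 and 8 in T and 7, 6 and 28 in UC. The spermatocyte markers summed to 3347 to 3485 CPM in T and 2788 to 3119 CPM in UC, without TMM scaling. With TMM, 0 of 8 of them passed between T and UC (median log2 change 0.05). Of the spermatozoa markers 3 of 5 were lower in T (−2.44), and of the spermatogonia markers 1 of 2 tested was higher (0.66). The part of these markers in the values was not tested.

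The early cluster and the clusters of the late class were also followed one by one, ordered by median pseudotime. Mov10l1 went in UC from 824 ± 66.1 CPM in cluster 22 to 229 ± 19.6 in cluster 6 and 85.9 ± 7.42 CPM in cluster 8, and in T from 369 ± 151 to 281 ± 15.6 and 112 ± 11.8 CPM. It was lower in all T than in all UC libraries at the first point and higher at the next 2. In clusters 20 (112 ± 22.4 CPM in UC, 130 ± 10.8 in T), 11 (61.6 ± 10.6 and 56.0 ± 7.35) and 19 (40.6 ± 25.7 and 18.9 ± 11.5) the libraries overlapped. The means of Piwil2 were highest in cluster 22 in UC and in cluster 6 in T, although its libraries overlapped in both clusters, with 295 ± 24.4, 200 ± 23.0 and 65.1 ± 8.22 CPM in UC and 167 ± 161, 240 ± 14.8 and 96.6 ± 10.8 CPM in T. Piwil1 had its highest level in cluster 6, of 895 ± 63.8 CPM in UC and 852 ± 40.5 CPM in T, and was at 213 ± 11.7 and 260 ± 32.1 CPM in cluster 7. Within cluster 7 alone, Mov10l1 was higher in T than in UC (log2 change 0.52, adjusted p = 0.020), and the share of all genes that passed there is not given.

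**Figure D2:**
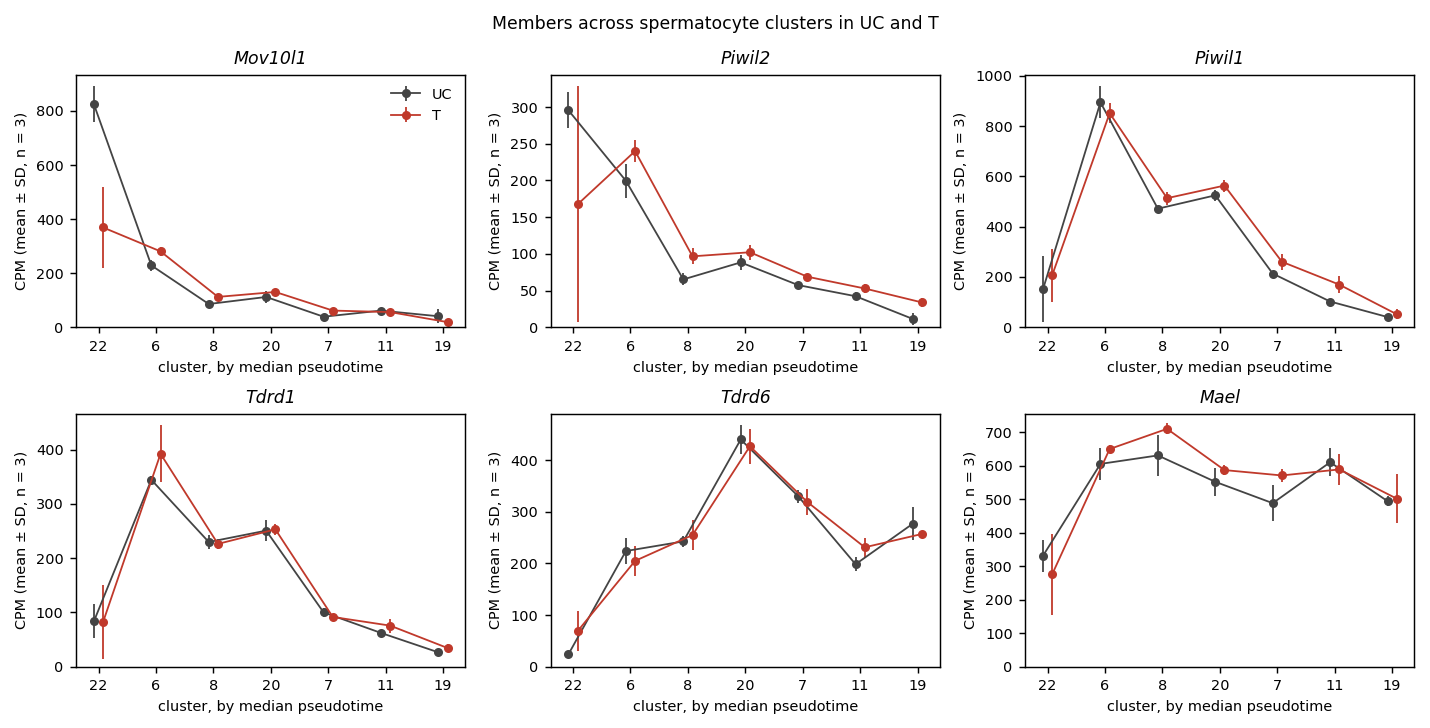
Levels of Mov10l1, Piwil2, Piwil1, Tdrd1, Tdrd6 and Mael (CPM, linear axis, mean ± SD of 3 libraries) in spermatocyte clusters ordered by median pseudotime, for UC and T. Clusters without cells in all 3 libraries of both groups are not drawn, and the T value of Mov10l1 is below that of UC in the first cluster (369 against 824 CPM) and above it in the second (281 against 229 CPM).

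The difference between the stages was itself tested. Between the early and late spermatocyte-like classes, the T-to-UC change of 2 of 9 members differed, where 1.51% of all genes passed: by 1.98 ± 0.33 for Mov10l1 (adjusted p = 1.8e-06) and 1.59 ± 0.44 for Piwil2 (adjusted p = 0.0272), as late minus early on the log2 scale. The median of all genes in this test was 0.53, of which 0.35 came with the TMM scaling, so both values are to be read against that. With plain library totals Mov10l1 passed and Piwil2 did not (1.23, adjusted p = 0.27), and the Piwil2 call was lost as well without T 1, T 2, UC 2 or UC 3. Henmt1 gives no usable value here, since it was at 0 in the early class of T. Between late spermatocyte-like and spermatid-like cells 0 of 9 members differed, where 2.97% of all genes did, with 1 at an unadjusted p under 0.05 and 0 by DESeq2. With VC-T 2 and VC-T 3 as controls Piwil1 differed between these classes (1.18, adjusted p = 0.0013, higher change in spermatid-like cells).

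In spermatid-like cells, 6 of 9 members passed between T and UC, all of them higher in T, where 45.8% of all genes passed and 20.8% passed as higher in T. Piwil1 was at 16.9, 10.9 and 15.8 CPM in UC and 36.1, 30.5 and 24.1 CPM in T. All T libraries were above all UC libraries, a 1.88-fold difference (log2 change 0.91 ± 0.18, adjusted p = 0.000776). Piwil2 was at 4.24, 4.25 and 6.37 CPM in UC and 12.8, 10.8 and 10.6 CPM in T, again without overlap and 1.97-fold (0.98 ± 0.22, adjusted p = 0.00218). Ddx4 differed less but more evenly, with 280, 261 and 289 CPM in UC and 407, 393 and 388 CPM in T (0.32 ± 0.06, 1.25-fold, adjusted p = 0.000684). Henmt1 (0.49 ± 0.18, adjusted p = 0.0308), Tdrd9 (0.36 ± 0.12, 0.0274) and Tdrd6 (0.20 ± 0.07, 0.0341) passed by smaller amounts. Tdrd1 (0.38 ± 0.15, adjusted p = 0.0530), Mov10l1 (0.45 ± 0.24, 0.130) and Mael (0.07 ± 0.07, 0.409) did not.

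**Figure D3:**
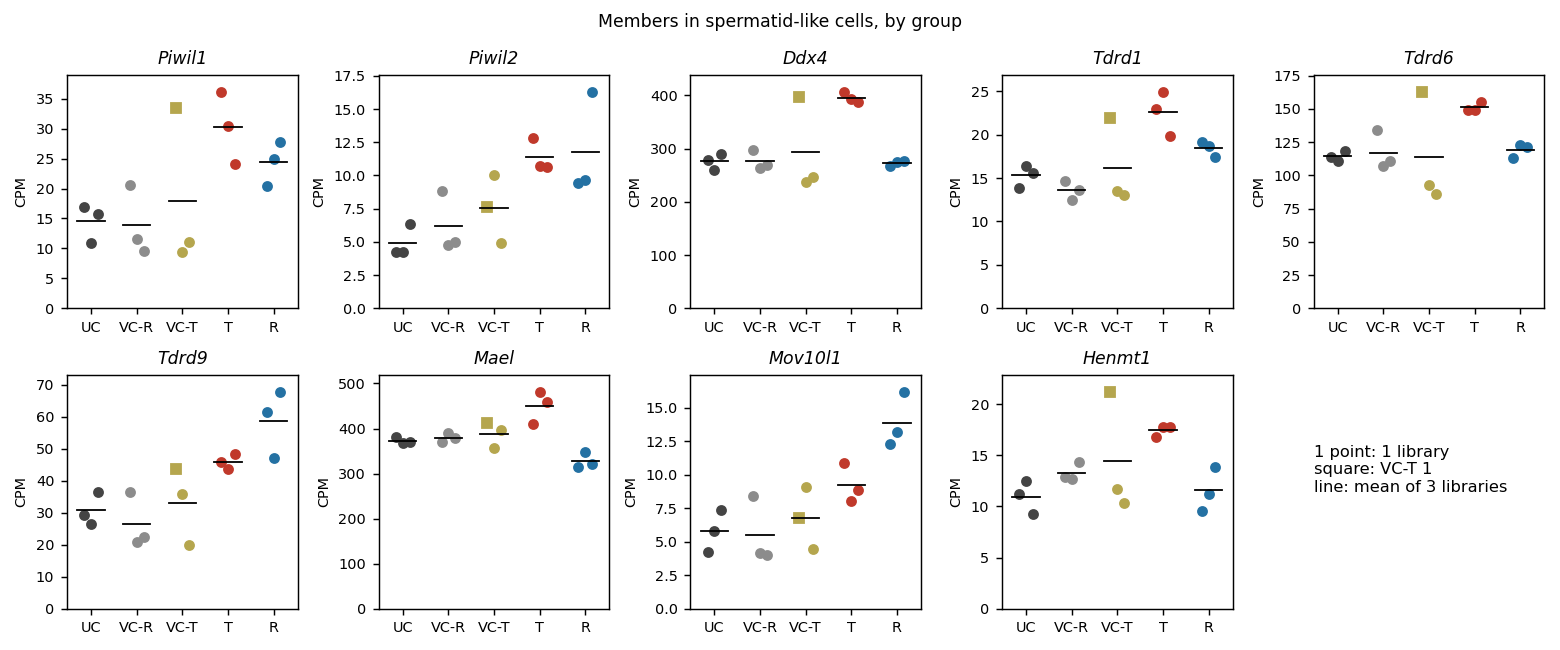
CPM of 9 members in spermatid-like cells of each library, by group (UC, VC-R, VC-T, T, R), on linear axes that start at 0. The square is VC-T 1 and lines are means of 3 libraries, and Piwil1 is at 24.1 to 36.1 CPM in T and 10.9 to 16.9 CPM in UC.

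The number of members that passed in spermatid-like cells depended on the cells and controls compared. The TMM scaling lowered the median log2 change of all genes in this comparison by 0.19. With plain library totals, where that median was 0.23, all 9 members passed as higher in T. DESeq2 passed 3 (Piwil1, Piwil2 and Ddx4), and the same 3 were left without UC 1. The share of all genes that passed with plain totals, with DESeq2 or without UC 1 is not given. When cells of T and UC were matched on pseudotime, 2 of 9 members passed where 13.3% of all genes did, namely Piwil1 (0.93, adjusted p = 0.0054) and Piwil2 (1.09, adjusted p = 0.023), while Ddx4 was at 0.06 and Tdrd6 at −0.08. Within cluster 1 alone, the largest of the class in T with 2123 of 4233 cells and in UC with 491 of 1894, Piwil1 (0.89, adjusted p = 0.014) and Piwil2 (1.41, adjusted p = 0.012) passed too. The share of all genes that passed in this cluster is not given. Without the clusters of few UMIs 4 members passed, where 48.0% of all genes did.

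Against VC-T 2 and VC-T 3, 4 of 9 members passed in spermatid-like cells, where 39.9% of all genes did: Piwil1 (1.39, from 9.39 and 11.1 CPM in these controls), Tdrd1 (0.57), Tdrd6 (0.54) and Ddx4 (0.49). Piwil2 was at 10.0 and 4.93 CPM in these controls, and its change of 0.37 did not pass (adjusted p = 0.32). Clusters of few UMIs made up 69.0% of the spermatid-like cells of VC-T 2 and 14.8% of those of VC-T 3. Their part in this was not tested. VC-T 1 had levels like those of T (33.4 CPM of Piwil1, 397 CPM of Ddx4), and against all 3 VC-T libraries 0 members passed, with Piwil1 at 0.64 (adjusted p = 0.35). The levels in Sertoli-like cells, whose mix of clusters differed between the groups, moved as well. Piwil1 was there at 87.9 and 120 CPM in the 2 T libraries with enough such cells (21 UMIs in all) and at 7.30 to 17.6 CPM in UC. Piwil2 was there at 26.7 and 51.3 CPM in T and 14.6 to 35.3 CPM in UC. The levels of both in T spermatid-like cells were thus below those in T Sertoli-like cells. An ambient part was also subtracted, assumed to be 5% of the UMIs of every library. Its profile came from the deposited barcodes with under 1000 UMIs, which may hold cells low in RNA. The ambient share itself was not measured. After this subtraction 5 members passed, with Piwil1 at 0.96 (adjusted p = 0.0012) and Piwil2 at 1.70 (adjusted p = 0.0068). The share of all genes that passed after it is not given. In the spermatid-like class, the spermatocyte markers summed to 1019.9 to 1067 CPM in T and 568 to 642 CPM in UC. The spermatozoa markers summed to 2985 to 3307 and 4866 to 5527 CPM. With TMM, 8 of 8 spermatocyte markers were higher in T (median log2 change 0.64). The class's own spermatid markers were lower in T in 6 of 6 cases (−0.35), as were 5 of 5 spermatozoa markers (−0.87). The part of these markers in the changes was not tested.

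At 6 weeks after the last dose, members passed against UC in spermatid-like cells and in none of the other 4 classes taken whole, and whether the classes differ in this was not tested. In spermatogonia-like cells 0 of 8 members passed between R and UC with edgeR, where 0.495% of all genes did, with 1 at an unadjusted p under 0.05 and 0 by DESeq2. In early spermatocyte-like cells 0 of 8 passed, where 4.36% of all genes did, with 4 at an unadjusted p under 0.05 and 0 by DESeq2. Mov10l1 there was at 770, 863 and 763 CPM, next to 866, 859 and 748 CPM in UC (−0.02 ± 0.12, adjusted p = 0.946). Piwil1, at 322, 172 and 296 CPM in R and 93.9, 302 and 59.1 CPM in UC, did not pass (0.92 ± 0.30, adjusted p = 0.0681), nor did Tdrd6 (1.05 ± 0.38, adjusted p = 0.113).

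In late spermatocyte-like cells 0 of 9 members passed between R and UC, where 0.00735% of all genes did, with 1 at an unadjusted p under 0.05 and 0 by DESeq2. The log2 changes lay between −0.05 (Mael) and 0.23 (Piwil2, ± 0.08, adjusted p = 0.326). Piwil1 was at 517, 428 and 461 CPM in R against 324, 472 and 361 CPM in UC, which overlap. The largest clusters of the class in R were 24, 6 and 7. In cluster 24, one of few UMIs, Tdrd9 was lower in R (−0.89, adjusted p = 0.035), against a change of 0.12 in the class. In spermatozoa-like cells 0 of 9 members passed, where 6.56% of all genes did, with 1 at an unadjusted p under 0.05 and 0 by DESeq2. Ddx4 was at 37.1, 36.2 and 44.5 CPM in R and 35.2, 27.4 and 33.4 CPM in UC (0.28 ± 0.09, adjusted p = 0.0665). Within cluster 3 alone Ddx4 (0.56), Mael (0.71) and Tdrd6 (1.00) passed as higher in R. For the fits of clusters 24 and 3 the share of all genes that passed is not given, and single clusters were looked at after seeing the data.

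In spermatid-like cells 6 of 9 members passed between R and UC, 4 higher and 2 lower, where 44.3% of all genes passed. Mov10l1 was at 4.24, 5.77 and 7.39 CPM in UC and 12.3, 13.2 and 16.2 CPM in R. The groups did not overlap, a 2.04-fold difference (1.03 ± 0.21, adjusted p = 0.000135). Piwil2 was at 9.43, 9.65 and 16.3 CPM in R, 2.08-fold above UC (1.06 ± 0.24, adjusted p = 0.000571), and in Sertoli-like cells of R it was at 8.70 to 13.9 CPM. Tdrd9 was at 29.3, 26.4 and 36.6 CPM in UC and 61.5, 47.0 and 67.7 CPM in R (0.72 ± 0.13, 1.65-fold, adjusted p = 2.62e-05), again without overlap. Piwil1, at 20.4, 24.9 and 27.8 CPM in R, was 1.49-fold above UC (0.57 ± 0.16, adjusted p = 0.0041). Mov10l1 and Piwil2 were past 1 on the log2 scale as well, as 8.71% of all genes were.

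The 2 members that passed as lower in R spermatid-like cells were Mael, at 314, 349 and 322 CPM against 381, 368 and 369 CPM in UC (−0.38 ± 0.08, adjusted p = 0.000287), and Ddx4 (−0.21 ± 0.08, adjusted p = 0.0294). For Ddx4 the unscaled levels overlapped, 268, 275 and 277 CPM in R against 280, 261 and 289 CPM in UC, and with plain library totals its change was −0.01, since TMM lowered the median change of all genes by 0.20. The same totals left Mael at −0.18 (adjusted p = 0.032).

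These R results moved with a set of clusters. The main clusters of the class were 9, 16 and 18 in R and 1, 17 and 4 in UC. The clusters whose cells had a median under 2000 UMIs made up 67.4 to 83.2% of spermatid-like cells in R, 16.6 to 20.8% in UC and 5.92 to 8.40% in T. A high share was not confined to R, since these clusters made up 69.0% in VC-T 2. They made up 14.8% in VC-T 3, 3.21% in VC-T 1 and 5.71 to 26.6% in VC-R. Without them 0 of 9 members passed between R and UC, where 3.07% of all genes did, and Mov10l1 was at 0.33 (adjusted p = 0.59), Piwil2 at 0.44 (0.42), Piwil1 at 0.40 (0.21) and Tdrd9 at 0.13 (0.65). With R and UC cells matched on pseudotime, 4 of 9 passed, where 33.3% of all genes did (Piwil1 0.61, Piwil2 1.27, Tdrd9 0.70 and Mov10l1 0.98, all higher in R). Against VC-R, 5 of 9 passed, where 36.0% of all genes did. The Sertoli markers summed to 85.0 to 106 CPM in these cells of R and 31.9 to 49.1 CPM in UC, the median UMIs per cell were 1452 to 2127 and 3896 to 5288, and 4 of 6 Sertoli markers tested were higher in R (median log2 change 0.93). Of the germ cell markers, 5 of 8 spermatocyte markers were higher and 1 lower (0.33), 6 of 6 spermatid markers were lower (−0.41) and 3 of 5 spermatozoa markers lower (−0.25). Their part in the changes was not tested.

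**Figure D4:**
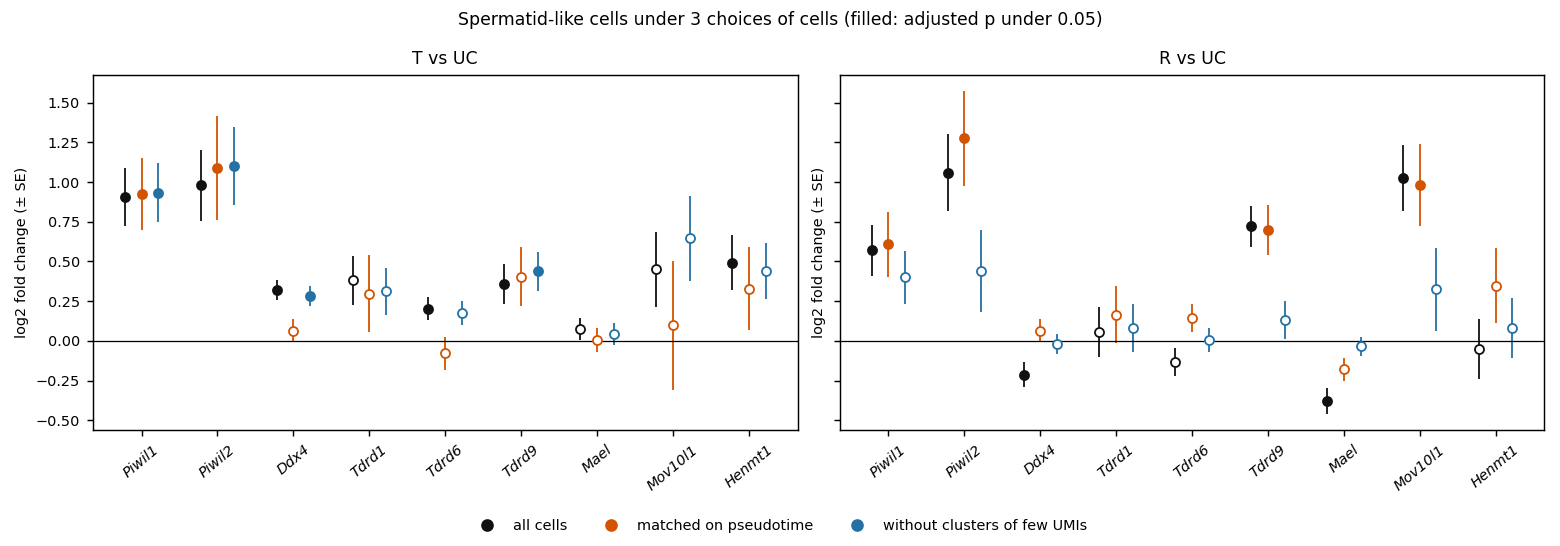
Log2 change ± SE of 9 members in spermatid-like cells, T against UC and R against UC, for all cells, for cells matched on pseudotime and without the clusters of few UMIs. Piwil1 stays near 0.9 in T under each choice (0.91, 0.93 and 0.93), whereas Mov10l1 in R goes from 1.03 and 0.98 to 0.33 without the clusters of few UMIs.

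T and R share the UC controls, so their changes are not set against each other. The direct comparison of T with R gave the following. In spermatogonia-like cells 0 of 9 members passed, where 3.66% of all genes did, with 1 at an unadjusted p under 0.05 and 0 by DESeq2. In early spermatocyte-like cells 2 of 8 passed, where 12.7% of all genes did and 11.4% were past 1 on the log2 scale too. Mov10l1, at 287, 276 and 543 CPM in T and 770, 863 and 763 CPM in R, was lower in T (−1.20 ± 0.27, adjusted p = 0.00258). Piwil2, at 388, 376 and 367 CPM in R, was lower in T (−1.16 ± 0.38, adjusted p = 0.0352), with T 3 near the R libraries at 351 CPM. Without T 1 or T 2 the Piwil2 call was lost (adjusted p = 0.16 and 0.13), and without T 3 4 members passed, with Piwil2 at −2.56 and Mov10l1 at −1.84. The spermatogonia markers of this class summed to 336 to 397 CPM in R.

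In late spermatocyte-like cells 2 of 9 members passed between T and R, where 16.6% of all genes did. Mov10l1 (R 112, 94.1 and 97.5 CPM) was higher in T by 0.29 ± 0.07 (adjusted p = 0.0250), and Henmt1 (R 55.1, 51.3 and 51.4 CPM) by 0.29 ± 0.08 (adjusted p = 0.0311). Neither passed without T 3, without R 2 or without R 3. In this class 5 of 5 spermatozoa markers and 4 of 6 Sertoli markers tested were lower in T (median log2 changes −1.77 and −1.57), and their part was not tested. In spermatid-like cells 8 of 9 passed, where 64.9% of all genes did. Mael (0.49), Ddx4 (0.57), Henmt1 (0.58), Piwil1 (0.38), Tdrd6 (0.38) and Tdrd1 (0.37) were higher in T, and Tdrd9 (−0.33) and Mov10l1 (−0.53) lower. Piwil2 had a change of −0.04 ± 0.20. With cells matched on pseudotime 0 of 9 passed, where 28.1% of all genes did, and without the clusters of few UMIs 5 passed and Tdrd9 was higher in T (0.29, adjusted p = 0.017). Without T 2 or without R 3 the count was 5. For the settings without these clusters or libraries the share of all genes that passed is not given. In spermatid-like cells 6 of 6 Sertoli markers tested (median −3.16) and 5 of 5 spermatozoa markers (−0.56) were lower in T and 6 of 8 spermatocyte markers higher (0.44), and their part was not tested.

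**Figure D5:**
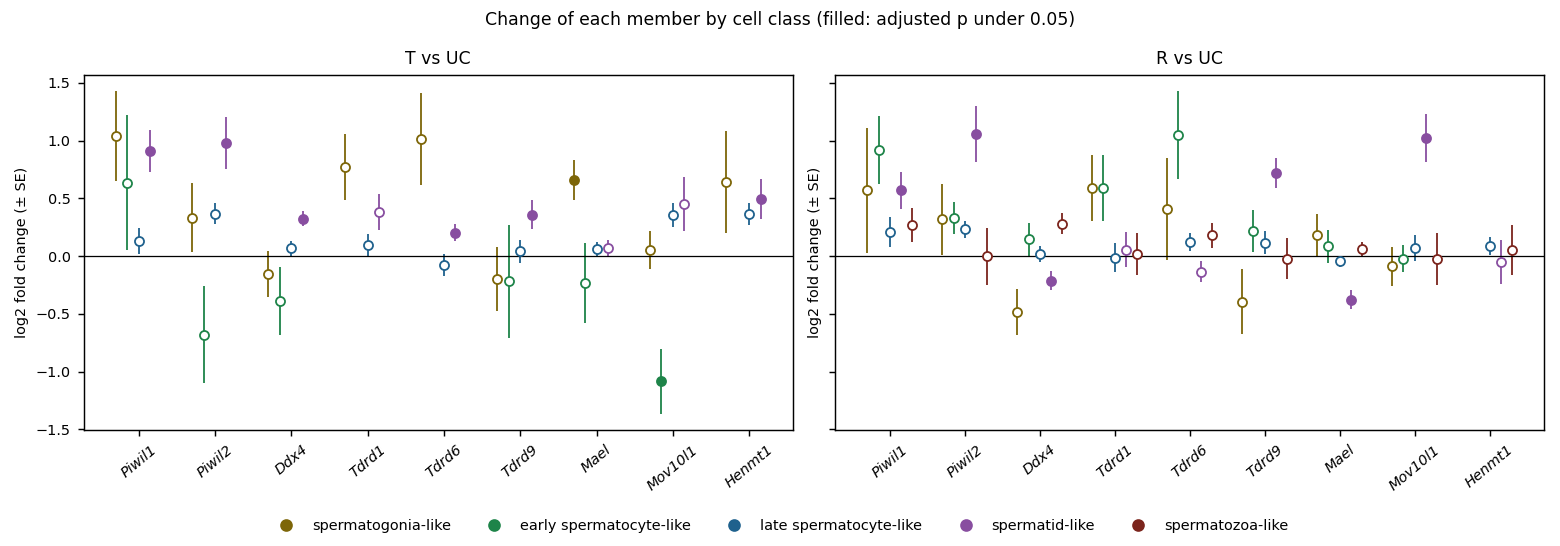
Log2 change ± SE of 9 members between T and UC and between R and UC, coloured by germ cell class and filled where the adjusted p was under 0.05. Mov10l1 in T is at −1.08 in early spermatocyte-like and 0.36 in late spermatocyte-like cells, and most filled points are of spermatid-like cells.

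The wider pathway was followed with 23 other piRNA genes. None passed in spermatogonia-like cells in any of the 3 comparisons with edgeR (at an unadjusted p under 0.05, 1 of 19 tested between T and UC, 2 of 15 between R and UC and 1 of 18 between T and R). In early spermatocyte-like cells 2 of 7 passed between T and UC, beside 12.6% of all genes. These were Tdrd12, a partner of secondary piRNA production, as lower (−1.76 ± 0.46, adjusted p = 0.0119) and Tex15, needed for transposon silencing, as higher (1.16 ± 0.24, adjusted p = 0.00183). Tdrd12 was lower in T than in R too (−2.08) and Tex15 higher (1.65), which made 2 of 14 tested beside 12.7% of all genes. Between R and UC 2 of 19 passed there, beside 4.36% of all genes, namely Gtsf1l (1.26) and Tex15 (−0.64). Tdrd12 was the 1 of 21 genes of the list whose T-to-UC change differed between early and late spermatocyte-like cells (2.32), beside 1.51% of all genes.

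In late spermatocyte-like cells 0 of 22 passed between T and UC, with 7 at an unadjusted p under 0.05, and 0 of 22 between R and UC, with 1. Between T and R 6 of 22 passed, all higher in T, beside 16.6% of all genes, led by Tdrkh (0.49), Fkbp6 (0.31), a co-chaperone of PIWI loading, and Stk31 (0.24). Mybl1, the transcription factor of the pachytene programme, had changes of −0.05 (T against UC), −0.03 (R against UC) and −0.01 (T against R) in this class, and none passed. In early spermatocyte-like cells it was at −0.04 between R and UC and −0.45 between T and R, which did not pass.

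In spermatid-like cells 8 of 20 passed between T and UC, 6 higher and 2 lower, beside a share of 45.8% of all genes. Mybl1 was higher in T (0.78 ± 0.19, adjusted p = 0.00281), as was Tdrd7 (0.43), a Tudor protein of the chromatoid body, and Gtsf1l (−0.99 ± 0.09) and Gtsf1 (−0.38), cofactors of PIWI slicing, were lower. Between R and UC 9 of 21 passed, 4 higher and 5 lower, beside 44.3% of all genes, with Stk31 at 1.00, Gtsf1l at −0.58, Gtsf1 at −0.53 and Mybl1 at 0.30 (adjusted p = 0.156). Between T and R 14 of 22 passed, 12 higher and 2 lower in T, beside 64.9% of all genes, with Tdrd7 at 0.52, Mybl1 at 0.52 (adjusted p = 0.00349), Stk31 at −1.09 and Gtsf1l at −0.37. In spermatozoa-like cells 2 of 19 passed between R and UC, beside 6.56% of all genes, namely Tdrd7 (0.51) as higher and Gtsf1l (−0.33) as lower. In the test of the difference between late spermatocyte-like and spermatid-like cells 0 of 22 passed, with 7 at an unadjusted p under 0.05.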

How the data were processed

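Testis cells of 15 mice were sequenced with the 10x Genomics 3′ chemistry (v3.1 per the labels). Raw UMI counts per gene and cell were deposited by the authors, who used mm10, STAR and Cell Ranger to make them. Their methods name Cell Ranger 3.0.0, the headers name another version, and whether intronic reads were counted is not given in the sources used here. Barcodes were kept from 500 genes and 1000 UMIs upwards and up to 30% mitochondrial UMIs, and the top 5.4% by doublet score were removed. Cells were clustered with scanpy 1.11.5 and leidenalg 0.10.2, and clusters were named from marker lists. Counts were summed per library and class (at least 10 cells) and tested with edgeR 4.0.16 (R 4.3.3, filterByExpr, TMM, quasi-likelihood, Benjamini-Hochberg), and with DESeq2 1.42.0 as an alternative. The fit was tested on simulated data. Poisson intervals are exact, and limits at 0 are 3 counts. The genes, lists and tests were chosen with earlier results of these data known: all 10 genes are named, and of the 23 others up to 3 with the smallest adjusted p per comparison, and Mybl1. No label says whether mice shared a litter or a day. The genes most like Piwil4 in pattern are not reported here.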

Additional observations from a re-analysis of the deposited data

Results flagged for a closer look

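The T-to-UC change differed between early and late spermatocyte-like cells for Mov10l1, by 1.98 ± 0.33 (SE) on the log2 scale as late minus early, and for Piwil2, by 1.59 ± 0.44 (adjusted p = 1.8e-06 and 0.0272, edgeR). In early spermatocyte-like cells, the end of treatment differed from 6 weeks later for Mov10l1 (−1.20, lower in all 3 T libraries than in any R library) and Piwil2 (−1.16, likewise). In late spermatocyte-like cells the same comparison gave 0.29 for Mov10l1 and 0.29 for Henmt1, both higher in T in all 3 libraries. In spermatid-like cells it gave 0.58 for Henmt1, 0.57 for Ddx4, 0.49 for Mael, 0.38 for Piwil1, 0.38 for Tdrd6 and 0.37 for Tdrd1, higher in T, and −0.53 for Mov10l1 and −0.33 for Tdrd9, lower in T. T and R also differed in age (10 and 16 weeks), which cannot be told apart from the time since the last dose. No gene of a group could be checked for a library far from the others, since every group had 3 libraries.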

How the results depend on the processing

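Of 2286 values of a member in a class and comparison under another setting, 1874 kept their direction and side of the threshold, 144 lost the call, 48 gained it, 27 that passed in at least 1 of the settings changed sign, and 193 that passed in neither changed sign. The last included 21 with matched cells, 14 with VC-R as controls (Piwil1 for R against UC in early spermatocyte-like cells, 0.92 to −0.068), 12 without TMM, and 5 each with VC-T 2 and VC-T 3 and with all 3 VC-T libraries (Piwil1 for T against UC in late spermatocyte-like cells, 0.13 to −0.13, with all 3). The settings without clusters of few UMIs, of single clusters and without TMM were chosen after seeing the data, and causes were not tested unless named. Numbers of members that passed moved as follows, and the share of all genes that passed is given above for only some of these settings. DESeq2 gave 0 for T against UC in spermatogonia-like cells (1 by edgeR), 1 in late spermatocyte-like (0) and 3 in spermatid-like cells (6), and 1 for the early-to-late difference (2), which was also 1 with DESeq2's size factors. Without the low-count filter these were 2 in spermatogonia-like and 1 in late spermatocyte-like cells and 1 for the early-to-late difference, and R against UC gave 1 in early spermatocyte-like and 1 in spermatozoa-like cells (0 each). Without TMM, T against R gave 1 in early spermatocyte-like cells (2), T against UC 2 in late spermatocyte-like cells, and the early-to-late difference 1. With VC-T 2 and VC-T 3 as controls, T gave 2, 0 and 3 in spermatogonia-like, early and late spermatocyte-like cells, and the late-to-spermatid difference 1. With all 3 VC-T libraries it gave 0, 0 and 0 in spermatogonia-like, early spermatocyte-like and spermatid-like cells and 1 for the early-to-late difference.

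With cells matched on pseudotime, T against UC gave 0 in spermatogonia-like, 1 in late spermatocyte-like and 2 in spermatid-like cells, T against R 0 in early spermatocyte-like and 0 in spermatid-like cells, R against UC 1 in spermatozoa-like cells, the early-to-late difference 0 and the late-to-spermatid difference 1 (Piwil1, 0.99, adjusted p = 0.0049). For T against UC in early spermatocyte-like cells, 11 matched cells per library left no member above the count filter, so no value was had. Keeping doublets gave 3 for T against UC and 2 for T against R in spermatogonia-like cells. One fit of all groups but VC-T 1 gave 2 for T against UC and 0 for T against R in late spermatocyte-like cells. Subtracting the assumed ambient part of 5% gave 0 for T against R there and 1 for the early-to-late difference. Without clusters of few UMIs, spermatid-like cells gave 0 for R against UC and 5 for T against R (6 and 8).

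The replicate numbers were not used as pairs in the main fits. In no class and comparison were all correlations of same-numbered deviations above 0.1 (from −0.398 to 0.638, both in late spermatocyte-like cells). With 3 libraries per group such correlations cannot exclude a pairing, and for T against UC in late spermatocyte-like cells 2 of them were 0.638 and 0.400. The fit with the replicate block gave 1 for T against R in early and 1 in late spermatocyte-like cells, 1 for R against UC in spermatozoa-like cells and 1 for the early-to-late difference.

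Leaving out each library in turn gave, for T against UC, 0 to 1 in spermatogonia-like, 0 to 2 in early spermatocyte-like, 0 to 0 in late spermatocyte-like and 3 to 5 in spermatid-like cells. For R against UC it gave 0 to 0 in spermatogonia-like, 0 to 1 in early spermatocyte-like (1 without R 2 or UC 2), 0 to 0 in late spermatocyte-like, 5 to 6 in spermatid-like and 0 to 1 in spermatozoa-like cells (1 without R 2). For T against R it gave 0 to 0, 1 to 4, 0 to 3 and 5 to 8, in stage order. The early-to-late difference had 1 to 2 and the late-to-spermatid difference 0 to 0.

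The 27 sign changes of values that passed were, with matched cells, those of Henmt1 (T against R, −0.019 in late spermatocyte-like and −0.13 in spermatid-like cells), Tdrd6 in spermatid-like cells (−0.079 for T against UC, −0.18 for T against R), Tdrd1 there (T against R, −0.021), Ddx4 there (R against UC, 0.066) and Piwil2 in the early-to-late difference (−8.49, adjusted p = 1). Without clusters of few UMIs they changed in T against R for Tdrd9 (0.29), Piwil2 (0.64) and Mov10l1 (0.30). In single clusters of spermatid-like cells they changed for T against UC in Tdrd6 (−0.061 in cluster 1, −0.030 in cluster 23) and Ddx4 (−0.11 in cluster 23), and for R against UC in Ddx4 (0.010, 0.084, 0.10, 0.16 and 0.89 in clusters 1, 4, 9, 18 and 25), Tdrd9 (−0.080, −0.11, −0.040, −0.070 and −0.14 in clusters 4, 9, 17, 18 and 26) and Mael (0.26, 0.11 and 0.056 in clusters 9, 17 and 26). In cluster 24 of late spermatocyte-like cells Tdrd9 was at −0.89 for R against UC. The early spermatocyte-like values of T rested on 22, 11 and 13 cells.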
